A study of Mus musculus with 2 samples.

Results

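The miRNAs described here are Mir378a, Mir191 and Mir425 in the bladder of newborn mice. Counts of the first 2 were found not under their own names but on the strand opposite the genes Gm25301 and Gm24083. Mir425 is the neighbour of Mir191 and was counted on its own, sense strand. These 3 genes, of 1973 miRNA genes measured, were chosen by name with their strand counts known, so their levels and strand shares are a description and are not tested. The data were 2 microRNA-seq libraries of total RNA of a size range under 30 nucleotides, 1 from the bladder of each of 2 littermate pups of strain B6NCrl at 0 days after birth, untreated and with sex not collected. They form 1 group of whole tissue, called pup 2 and pup 1 after the labels, and the design holds no second condition. In whole tissue, fewer cells of a type and less RNA per cell cannot be told apart.

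MicroRNAs are cut from hairpin precursors and guide the repression of messenger RNAs, mostly through a short seed at bases 2 to 8. Mir378a sits in an intron of Ppargc1b, the gene of a coactivator of mitochondrial and fatty acid metabolism, and in mice it is known for roles in energy balance in muscle, liver and brown fat. Mir191 and Mir425 are a pair of neighbouring miRNAs found in many tissues, and miR-191 has been used in human samples as a reference for measuring other miRNAs.

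In the GENCODE M21 annotation of GRCm38, Gm25301 (ENSMUSG00000093026.1) lies on chromosome 18 at 61397813 to 61397925, on the plus strand. The Mir378a hairpin lies inside it on the minus strand, at 61397835 to 61397900, and both fall in intron 1 of Ppargc1b, which is on the minus strand too. Gm24083 (ENSMUSG00000092915.1) lies on chromosome 9 at 108568295 to 108568414, on the minus strand. The Mir191 hairpin lies inside it on the plus strand, at 108568319 to 108568392. Mir425 (ENSMUSG00000065579.1) follows on the plus strand at 108568777 to 108568861, with 384 bases between the hairpins. Both lie in the single exon of one transcript of the long non-coding gene 4833445I07Rik, and Mir191 also in intron 1 of its other transcript. The protein-coding gene Dalrd3 starts 1024 bases past Mir425 in GENCODE M21, whereas the RefSeq gene Dalrd3 runs from 108567484 to 108572773 and spans both miRNAs.

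**Figure D1:**
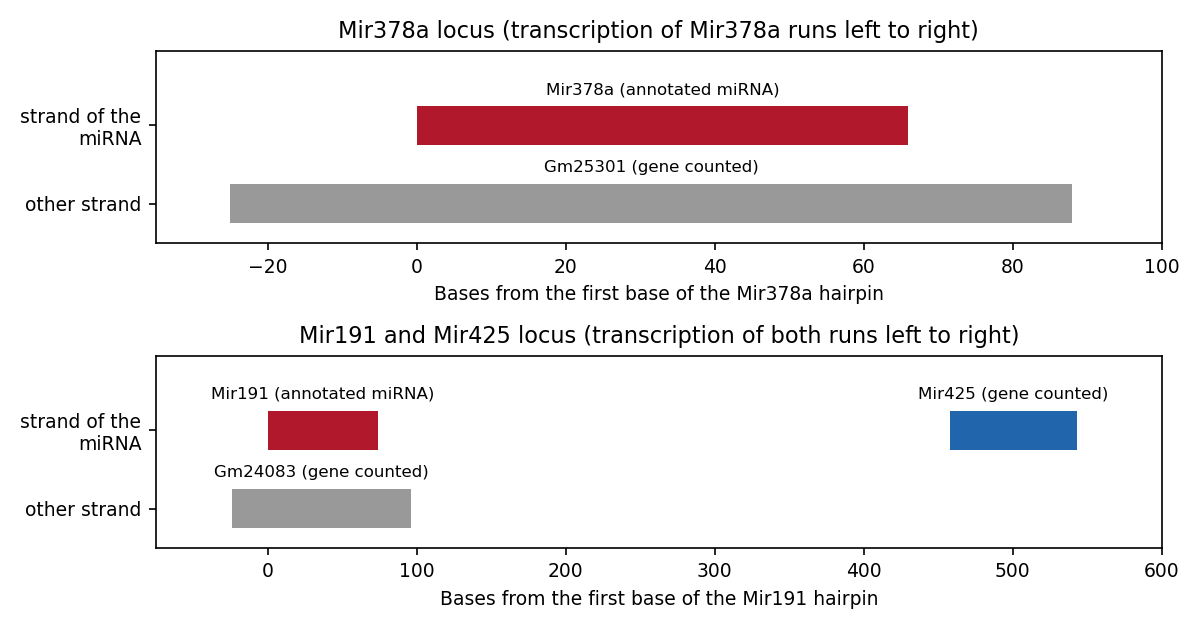
Position and strand of the members. Bars are annotated genes, the x axis is the distance in bases from the first base of the miRNA hairpin in its direction of transcription, and the y axis is the strand. Gm25301 extends 25 bases before and 22 bases after Mir378a, and Gm24083 extends 24 bases before and 22 bases after Mir191, while Mir425 is on the strand of Mir191.

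The hairpins of the chromosome 9 pair are shown because their counts are compared below, from RefSeq on GRCm38.p6, 5′ to 3′ on the plus strand, with the mature arms in capitals.
Mir191: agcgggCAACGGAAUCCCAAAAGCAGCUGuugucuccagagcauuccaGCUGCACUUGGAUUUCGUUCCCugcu
Mir425: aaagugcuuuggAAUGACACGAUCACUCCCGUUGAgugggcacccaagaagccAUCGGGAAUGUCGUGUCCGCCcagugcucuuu
The counts are per gene and do not say which arm or which bases within the gene the reads covered. Naming the opposite-strand counts after Mir378a and Mir191 therefore rests on position and strand in the annotation. None of the 4 mature sequences occurred in any of the 1004 other hairpins of the RefSeq table.

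The mature sequences below are shown with the seed in capitals, to place the pair among miRNAs that share a seed.
mmu-miR-191-5p: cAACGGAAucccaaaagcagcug
mmu-miR-425-5p: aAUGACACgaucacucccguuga
mmu-miR-489-3p: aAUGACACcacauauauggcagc
The seed of miR-191-5p was in no other mature sequence of the table. The seed of miR-425-5p was shared with miR-489-3p, whose gene Mir489 had 0 counts in pup 2 and 1 count in pup 1. Of these 2 genes, Mir425 held nearly all counts in both libraries.

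Each library is described by its totals. Sense-strand gene counts were 3636650 in pup 2 and 7460621 in pup 1, so pup 1 is the more deeply sequenced. Levels are counts per 1000000 sense-strand gene counts (CPM), also for the opposite-strand loci, which are not in that total. Where a count is 0, a level of up to 0.825 CPM is allowed in pup 2, and of up to 0.402 CPM in pup 1. Intervals and such limits cover counting error only, since reads carry no molecular identifiers. Each small RNA read is about as long as a mature miRNA, so counts were not divided by gene length. The tissue label was set beside marker miRNAs. Of the smooth muscle markers, Mir143 had 523168 CPM in pup 2, against 526451 CPM in pup 1, and Mir145a had 12122 and 11840 CPM. The 4 epithelial markers Mir200c, Mir429, Mir205 and Mir203 together reached 13549 CPM in pup 2, against 13833 CPM in pup 1. Mir205 was higher in pup 2, at 3568 and 3284 CPM, while Mir200c, Mir429 and Mir203 were lower there. Mir126a of endothelium had 19646 and 19915 CPM. The blood cell markers Mir223, Mir451a and Mir144 together reached 2197 CPM in pup 2, against 1042 CPM in pup 1. Of these, Mir223 differed most, at 1274 and 396 CPM, beside Mir451a at 452 and 357 CPM and Mir144 at 471 and 288 CPM. Mir122 of liver had 31.6 CPM in pup 2, against 111.8 CPM in pup 1.

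The locus of Mir378a was among the most abundant in the newborn bladder. The strand opposite Gm25301 had 77042 counts in pup 2 and 160715 counts in pup 1. That is 21185 CPM in pup 2 (exact 95% Poisson interval 21036 to 21335) and 21542 CPM in pup 1 (21437 to 21647), with a mean of 21363 ± 252.4 CPM (SD, n = 2). The pups lay close together, with an SD of 1.18% of the mean, though their counting intervals did not overlap. No count fell on the sense strand of Gm25301 in either library, which allows up to 0.00389% of the gene's counts in pup 2 and 0.00187% in pup 1.

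In the merged order of sense genes and opposite-strand loci, the Mir378a locus ranked 8 by mean CPM. In each pup taken alone it ranked 7. Above it by the mean were Mirlet7i at 22500 ± 2206 CPM and Mir26b at 22050.0 ± 1799.6 CPM, which differed from it by less than the sum of the SDs. Mirlet7i was below it in pup 2, and Mir26b was below it in pup 1. Below it were Mir126a of endothelial cells at 19780 ± 190.3 CPM, a difference beyond the summed SDs, and Mir22 at 19380 ± 2921 CPM, a difference within them.

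The locus of Mir191 had a mean level equal to 0.180% of the sense-strand total. The strand opposite Gm24083 had 6820 counts in pup 2 and 12831 counts in pup 1. That is 1875 CPM in pup 2 (1831 to 1920.4) and 1719.8 CPM in pup 1 (1690.2 to 1749.8), with a mean of 1798 ± 109.97 CPM (SD, n = 2). Pup 2 was the higher, and the counting intervals of the pups did not overlap. Again no count fell on the sense strand of the gene, which allows up to 0.0440% of its counts in pup 2 and 0.0234% in pup 1.

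The Mir191 locus ranked 52, in a stretch of the order where the neighbours lay within their spread. Mir195a at 1799 ± 23.5 CPM and Mir541 at 1798 ± 174.3 CPM stood just above it. The strand opposite Gm25252, where Mir376a is annotated, at 1716 ± 134.0 CPM, and Mir125a at 1714 ± 88.7 CPM stood just below it. None of these 4 differed from it by more than the sum of the SDs.

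Mir425 was the lowest of the members and was counted on the sense strand alone. It had 3884 counts in pup 2 and 7788 counts in pup 1. That is 1068 CPM in pup 2 (1035 to 1102) and 1044 CPM in pup 1 (1021 to 1067), with a mean of 1056 ± 17.1 CPM (SD, n = 2). The counting intervals of the pups overlapped. Its opposite strand had 0 counts in both libraries, which allows up to 0.0772% of the gene's counts in pup 2 and 0.0385% in pup 1.

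Mir425 ranked 73 in the merged order and 65 among sense genes, since 8 opposite-strand loci lay above it. The strand opposite Mir497b, where Mir497 is annotated, at 1131 ± 5.37 CPM, and Mir324 at 1127 ± 34.8 CPM were just above it and differed from it by more than the summed SDs. Mir467e at 1033 ± 35.2 CPM and Mir298 at 1033 ± 106.3 CPM were just below it, within the spread.

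**Figure D2:**
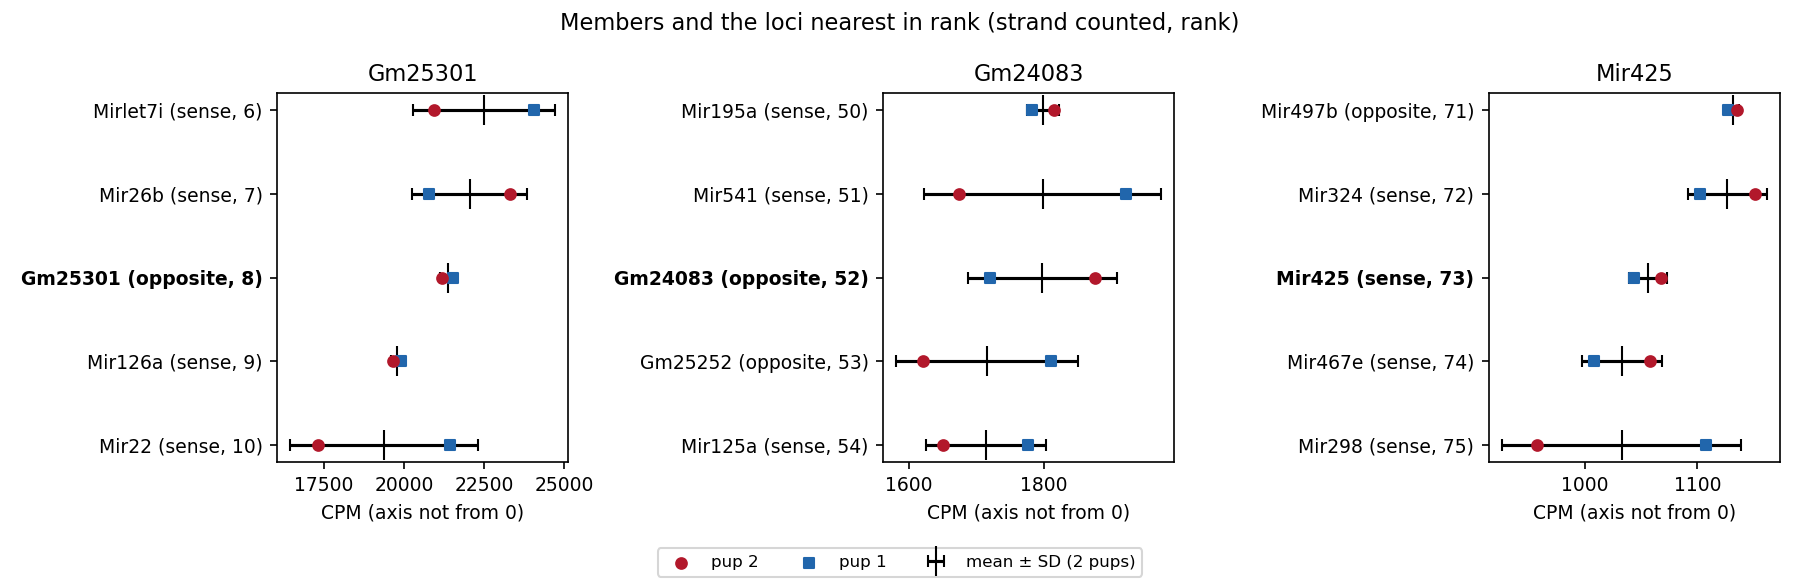
Levels of the members and of the 2 loci ranked just above and just below each. The x axis is CPM, points are the 2 pups, the bars are the mean and SD over the pups, and row labels give the strand counted and the rank. The pups nearly coincide at Gm25301, near 21185 and 21542 CPM, while Mir22 and Mirlet7i spread widely around them.

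**Figure D3:**
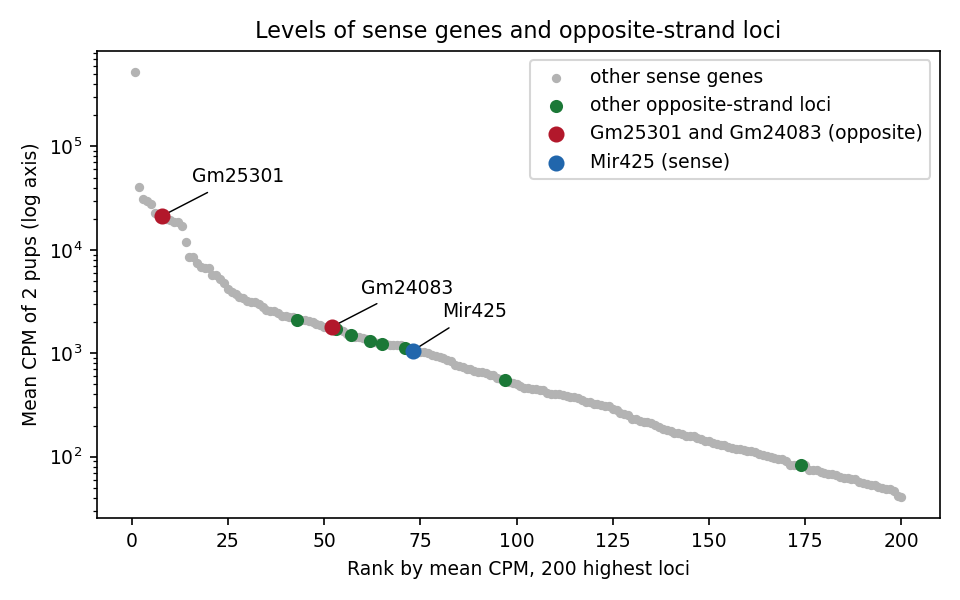
Mean CPM (log axis) of the 200 highest loci by rank, sense genes in grey, opposite-strand loci in green, Gm25301 and Gm24083 in red and Mir425 in blue. Gm25301 stands at rank 8, ahead of the other opposite-strand loci, of which the next is at rank 43.

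The members were then set against each other within a library, which needs no scaling between libraries. The Mir191 locus had 1.76 times the counts of Mir425 in pup 2 (exact conditional 95% interval 1.69 to 1.83) and 1.65 times in pup 1 (1.60 to 1.69), a mean ratio of 1.70 ± 0.077 (SD, n = 2). Both pups had Mir191 above Mir425, and the intervals of the ratio overlapped narrowly. The Mir378a locus had 19.8 times the counts of Mir425 in pup 2 and 20.6 times in pup 1. It had 11.3 times the counts of the Mir191 locus in pup 2 and 12.5 times in pup 1, where the intervals of 11.02 to 11.58 and 12.3 to 12.8 did not overlap.

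The Mir191 and Mir425 pair was compared with other neighbours. Loci with 100 counts or more in every library were taken in order along each strand. Each was paired only with the next, where at most 1000 bases lay between them, which formed 50 pairs. The pair stood at place 16 from the most equal, at 1.70-fold by the geometric mean of the pups. The median pair was 2.89-fold apart, and 9 pairs were at least 10-fold apart. The 5 most abundant pairs were each more unequal than this. They were Mir99a over Mirlet7c-1 at 383.6-fold, Mir322 over Mir503 at 31.98-fold, Mir23b over Mir27b at 8.22-fold, Mir23a over Mir27a at 41.0-fold and Mir99b over the strand opposite Gm25927 at 3.18-fold. The 3 most unequal pairs were Mir99a with Mirlet7c-1, Mir27b with the strand opposite Mir3074-1 at 67.0-fold, and Mir23a with Mir27a. In 11 of the 50 pairs a member had a mature sequence found in another hairpin, so that reads mapped to several places could be missing from it. This was looked up under the name of the counted gene. Mir99a with Mirlet7c-1 and Mir27b with the strand opposite Mir3074-1 were among these 11 pairs, and Mir23a with Mir27a was not. At opposite-strand loci, which 12 of the pairs hold, the miRNA annotated there was not searched, apart from Mir191. Neither Mir191 nor Mir425 had such a copy. The log2 ratio of Mir191 to Mir425 differed by 0.09 between the pups, and the median of that difference over the 50 pairs was also 0.09.

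**Figure D4:**
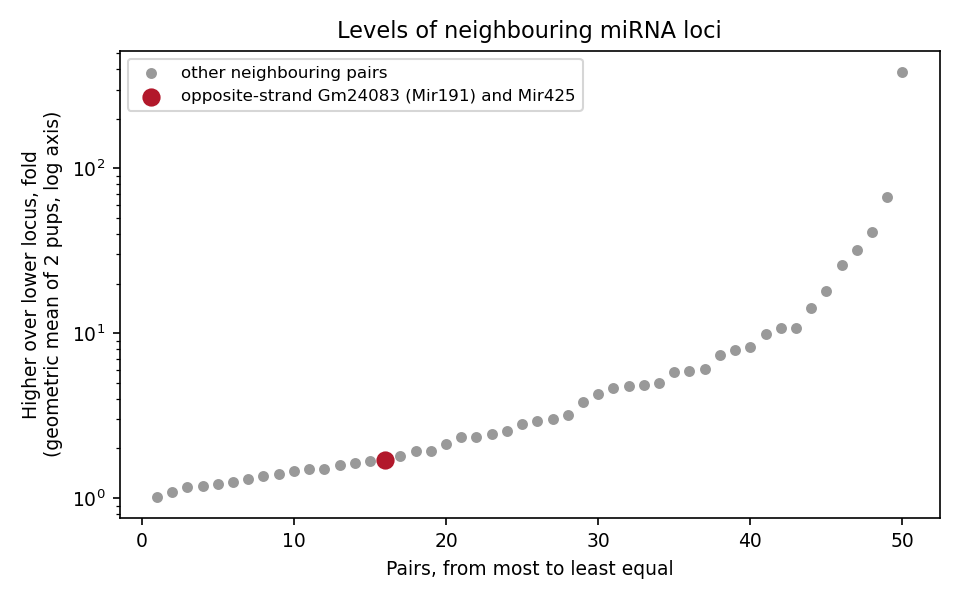
Fold of the higher over the lower locus (log axis) for 50 pairs of neighbouring miRNA loci, ordered from most to least equal. The strand opposite Gm24083, holding Mir191, with Mir425 is the red point at place 16 and 1.70-fold, among pairs that reach 383.6-fold. The pair at 383.6-fold, Mir99a with Mirlet7c-1, holds a mature sequence found in another hairpin, so reads could be missing from it.

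The littermates were compared at each member after scaling the libraries by TMM, with 1 library on each side and no replicate check. The log2 ratio of pup 2 over pup 1 was -0.06 at the Mir378a locus (counting interval -0.075 to -0.050), 0.09 at the Mir191 locus (0.04 to 0.13) and -0.0056 at Mir425 (-0.06 to 0.05). No member reached an absolute log2 ratio of 0.32, which 12.7% of 213 loci counted 100 times or more in both pups did. The median absolute log2 ratio of those loci was 0.13. A smaller absolute log2 ratio was found at 60 of the 213 loci for Gm25301, at 77 for Gm24083 and at 6 for Mir425. With total count scaling the value at Mir425 was 0.03, of the other sign, and that at Gm25301 was -0.02. At Gm24083 it was 0.12, larger than with TMM.

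Strand use was what chose Gm25301 and Gm24083, so its values describe them and support nothing. Of 213 genes counted 100 times or more in both pups, 10 were at or above 99% opposite-strand counts in each, which is 4.69% of the genes. Just inside this limit was Gm24111, with 304 opposite and 0 sense counts in pup 2 and 615 and 1 in pup 1. Just outside was Mir3074-1, with 66.7% on the opposite strand in pup 2 and 70.9% in pup 1, and then Mir486 with 2.36% and 4.12%. The 5 most abundant of the 10 were Gm25301, Gm25927 at 2089 ± 49.6 CPM, Gm24083, Gm25252, and Gm24321 at 1511 ± 168.1 CPM. The miRNAs annotated there are Mir378a, Mirlet7e, Mir191, Mir376a and Mir409. Gm25301 held 64.4% of all opposite-strand gene counts in pup 2 and 65.7% in pup 1, and Gm24083 held 5.70% and 5.24%.

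**Figure D5:**
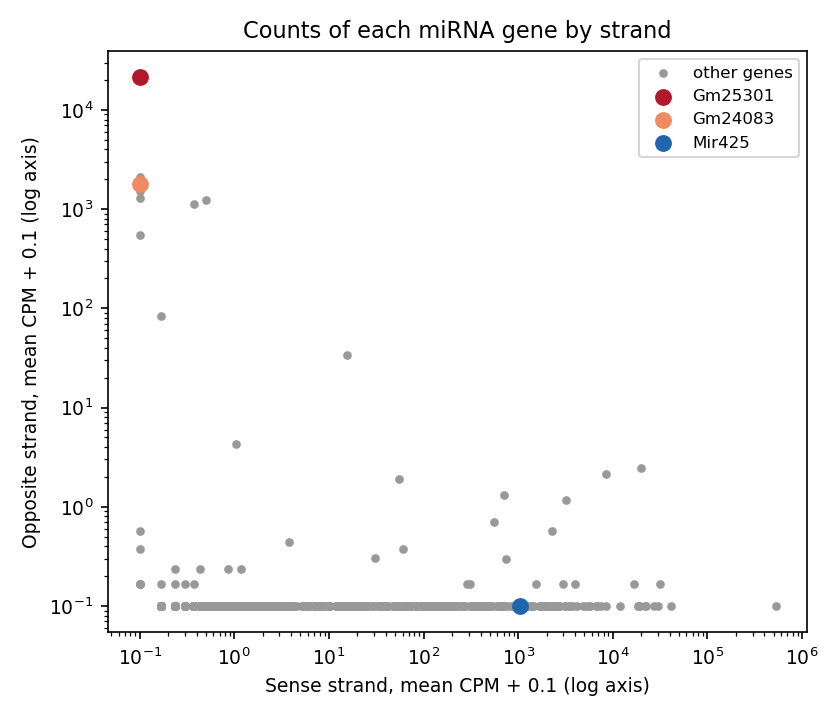
Each point is a miRNA gene, with its mean CPM on the sense strand (x axis) and on the opposite strand (y axis), both plus 0.1 on log axes. Gm25301 at 21363 CPM and Gm24083 at 1798 CPM lie on the left edge with no sense count, and Mir425 lies on the lower edge with no opposite count.

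Overlap with a miRNA on the other strand was counted over all genes, since the members were named for it. Of the 1894 genes with a position in GENCODE M21, 32 are overlapped by another miRNA gene on the other strand, and in all 32 cases that other gene was not among those counted here. Gm25301 and Gm24083 are 2 of the 32, and Mir425 is not. All 10 genes with at least 99% opposite-strand counts are among the 32, against 10 of the other 203 genes that had 100 counts or more. In 9 of the 10, the miRNA lies wholly inside the gene, with Mir299b as the exception. Of the 32 genes, 22 had at least 1 count on the opposite strand, and of all 1973 genes 44 did (2.23%). Where no miRNA is annotated on the other strand, opposite-strand counts made up at most 0.855% at 193 genes of 100 counts or more.

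The deposited tables also list reads assigned to no gene. For the sense strand that line held 172418 reads in pup 2 and 364180 in pup 1. It exceeded the same line for both strands by 119557 reads in pup 2 and by 244639 in pup 1, which equals the sums of opposite-strand gene counts. In the sense-strand column the reads at these loci are thus listed as belonging to no gene. The counts opposite Gm25301 equalled 44.7% of it in pup 2 (exact 95% binomial interval 44.4% to 44.9%) and 44.1% in pup 1 (44.0% to 44.3%), and those opposite Gm24083 equalled 3.96% and 3.52%.

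The other genes of the Mir378 family were low where measured. Their mature sequences are shown for likeness within the family, from RefSeq on GRCm38.p6, with seeds in capitals.
mmu-miR-378b: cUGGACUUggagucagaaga
mmu-miR-378c: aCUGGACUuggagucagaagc
mmu-miR-378d: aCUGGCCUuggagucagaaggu
The longest stretch common to miR-378b and miR-378c is 19 bases, and miR-378d shares 14 bases with each. Mir378a itself was not compared by sequence here, neither with these nor with other hairpins. Mir378b, on chromosome 11, had 5 counts in pup 2 and 11 in pup 1. Mir378c, on chromosome 14, had 28 and 55 counts, and Mir378d, on chromosome 10, had 22 and 77. As levels these are 1.42 ± 0.070, 7.54 ± 0.23 and 8.19 ± 3.02 CPM (SD, n = 2). Their sum, 15.1 CPM in pup 2 beside 19.2 CPM in pup 1, was below the Mir378a locus by 1401-fold in pup 2 and 1124-fold in pup 1. Reads that map to several places, 24.8% of reads in pup 2 and 22.7% in pup 1, were listed apart from the genes, so loci with like sequences can be measured too low, the Mir378a locus included. Their part in these ratios was not tested.

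Since Mir378a is known from brown fat and striated muscle, 13 other miRNA genes reported for those tissues were read beside it. Of 12 measured under their own names, 7 were detected at 1 CPM and 3 counts in both libraries, where 335 of 1973 genes were detected overall. Mir455 led them with 589.0 CPM in pup 2, against 648.6 CPM in pup 1, and Mir193b, a miRNA of brown fat in mice, followed at 85.2 and 81.8 CPM. Mir208b and Mir208a, which lie in myosin genes of heart and slow muscle, were at 52.5 and 73.3 CPM and at 22.8 and 18.4 CPM. Mir206 of skeletal muscle was at 6.87 and 11.1 CPM, Mir499 at 10.2 and 3.62 CPM and Mir365-2 at 2.75 and 2.41 CPM. Mir365-1, Mir1a-1, Mir133a-1, Mir133a-2 and Mir133b did not reach the limit, with 0 to 6 counts each. The strand opposite Mir1b, where Mir1a-2 is annotated, had 19 counts in pup 2 and 24 in pup 1, or 5.22 and 3.22 CPM. Read in the way used for Mir378a, this locus would pass the same limit, and it is not in the count of 7. Together the 12 genes had 771.3 CPM in pup 2, against 841.5 CPM in pup 1. The Mir378a locus was 27.5 times this sum in pup 2 and 25.6 times in pup 1. The list does not measure which cells the Mir378a counts came from. Reads of list members that have close copies elsewhere may be lost from their counts. Mir365-1 and Mir365-2 had a mature sequence found in another hairpin, and close but inexact copies were not searched for. Low counts in this list thus do not show that a miRNA was absent, and the sum may be too low.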

How the data were processed

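For every library the authors deposited a table of raw counts by miRNA gene, with no pooling and no normalization. Per the file headers and labels, reads were aligned to mm10 with GENCODE M4 genes. Tools and filters for alignment and counting were not given in the sources used here, nor was the strand setting. The columns carry no names. At every gene the leading count column was the sum of the following 2, which were read from their values as sense and opposite strand. The 4 lines of reads assigned to no gene stayed out of totals. Of 1973 gene IDs, 1894 matched GENCODE M21 on GRCm38, the assembly mm10 names; 79 did not.

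The members, lists and rules were chosen with earlier results of these data known. Named genes were the members, their annotated partners, the loci 2 ranks above and below, the 5 highest opposite-strand loci, the Mir378 family, the muscle and brown fat list, the most abundant and most unequal neighbouring pairs, and marker genes. No test was run, since the 2 samples form 1 group, and no p-value is given. Intervals are exact, at 95%. Ratios between pups used TMM scaling in edgeR 4.0.16, with DESeq2 1.42.0 size factors as an alternative, in R 4.3.3. Other steps used Python 3.11.15 with pandas 2.3.3, numpy 2.4.6, matplotlib 3.10.9 and scipy 1.17.1. Sense-strand gene counts of 3636650 in pup 2 and 7460621 in pup 1 set the precision.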

Additional observations from a re-analysis of the deposited data

How the results depend on the processing

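Of 54 recomputed values, 36 stayed within the spread between the pups, the counting interval or 1.5 times a count, and 18 did not. Levels follow the denominator. Per 1000000 gene counts of both strands the Gm25301 locus was at 20684 and Mir425 at 1022. Without Mir143 in the total, the levels were 44959 at Gm25301, 3782 at Gm24083 and 2222 at Mir425. Per 1000000 reads of all kinds they were 13963, 1174 and 690.1. Leaving out 1 pup gave rank 7 in either case for Gm25301, 49 to 53 for Gm24083 and 73 to 75 for Mir425, and left 29.8% to 30.6% of other pairs less unequal than Mir191 with Mir425. That share was 30.6% with both pups, 24% at a distance of 5000 bases and 28.4% at a minimum of 10 counts. The log2 ratio at Gm25301 was -0.024 with total count scaling. Absolute log2 ratios between pups reached 0.32 at 29.8% of loci with 10 summed counts and at 42.9% with no minimum, where fewer counts widen the ratios. The number of genes with 99% opposite-strand counts was 9 at a minimum of 1000 counts and 10 at a minimum of 10 counts or with either pup left out, and a share of 90% in place of 99% also gave 10. The ratio of Mir191 to Mir425 was 1.65 to 1.76 with 1 pup left out. No paired analysis was possible because the samples form 1 group with no second condition. With 2 pups of 1 litter, the spread does not cover differences between litters.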

Other observations

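Outside the 10 genes, opposite-strand counts were few. Mir3074-1, opposite Mir24-1, had 108 opposite and 54 sense counts in pup 2 and 287 and 118 in pup 1. Mir1b, opposite Mir1a-2 of striated muscle, had 2 sense counts in pup 2 and 10 in pup 1 beside the opposite-strand counts given above. Mir126a, opposite Mir126b, had 10 opposite-strand counts in pup 2 and 15 in pup 1, beside 71444 and 148576 sense counts. Mir30e and Mir451a, which also have a miRNA annotated on the other strand, had no opposite-strand count in either pup. Among the 11 opposite-strand loci with at least 100 counts in each library, 2 reached an absolute log2 ratio of 0.32 between the pups, Mir142b at a log2 ratio of 1.15 and Mir3074-1 at -0.41, chosen here after their values were seen. Over all 213 loci with that many counts the share was 12.7%. Mir142, annotated opposite Mir142b, is a miRNA of blood cells. The members Gm25301 and Gm24083 were at -0.06 and 0.09.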
